A study of Arabidopsis thaliana with 10 samples.

Results

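Transcript levels of 36 genes of gibberellin synthesis, inactivation, perception and response were followed in dark-grown seedlings of Arabidopsis thaliana, out of 33559 genes in the deposited table. The members were chosen by gene identifier, with earlier results of these data known, and all 36 were found. They comprise 5 genes of the early synthesis steps, 5 GA 20-oxidases, 4 GA 3-oxidases, 7 GA 2-oxidases, 3 receptors of the GID1 family, 5 DELLA repressors, 2 F-box genes and 5 genes of the GASA family. RPKM, a read count divided by gene length and by the library's mapped reads, was given for 5 genotypes, all in the Col-0 background. The hls1 mutant lacks a working HOOKLESS1, a gene needed for the apical hook. The pifq mutant carries mutations in the genes of 4 PHYTOCHROME INTERACTING FACTORs (PIF1, 3, 4 and 5), which maintain growth in darkness. In ein3 eil1 the genes of EIN3 and EIL1, which drive transcription in response to ethylene, are mutated. The pifq ein3 eil1 mutant combines both sets, and Col-0 is the wild type. The allele of each mutation is not given in the sources used here. Seeds were held at 4 °C for 3 days on MS medium, given light for 3 to 6 hours and kept in darkness at 22 °C for 3 days, without any treatment, and the seedlings were collected without their roots. There were 10 samples, 2 biological replicates of every genotype, but the table holds 1 value per gene and genotype, taken as the authors' mean of both. Replicate error is thus hidden, no difference was tested, and sequencing depth is unknown.

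Gibberellins are growth hormones made from a plastid diterpene precursor in a chain of steps. GA1 and GA2 encode the cyclases, GA3 encodes ent-kaurene oxidase, and KAO1 and KAO2 encode ent-kaurenoic acid oxidases. GA 20-oxidases and GA 3-oxidases then complete the active hormone, and GA 2-oxidases inactivate it. The hormone binds GID1 receptors, and the complex brings DELLA proteins to the F-box proteins SLY1 and SNE for degradation. DELLA proteins bind and inhibit both PIF factors and EIN3, which places this pathway beside the transcription factors mutated here and in the formation of the apical hook. GASA genes encode small cysteine-rich secreted peptides, several of which respond to gibberellin.

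A gene is called higher or lower here where log2(RPKM + 1) differed by 1 or more between genotypes, among the 18581 genes with an RPKM of 1 or more in any genotype. This filter kept 25 of the 36 members, of which 23 were at 1 RPKM or more in all 5 genotypes. GA20OX3 passed it through hls1 only, and SNE through ein3 eil1 and pifq ein3 eil1 only. The other 11 never exceeded 0.632 RPKM. Of these, GA20OX4, GA20OX5, GA3OX3, GA3OX4 and GA2OX3 were listed at 0 in every genotype, and GA1, GA3OX2, GA2OX1, GA2OX4, GA2OX7 and GASA5 were above 0 in at least 1. In all, 7 of the 25 members were called in at least 1 comparison with Col-0 and 18 in none, where 18.9% of the 18581 genes were called in at least 1. The 4 comparisons with Col-0 share that 1 column, so they are not independent of each other.

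Of the mutated genes, EIN3 stood at 13.3 RPKM in pifq ein3 eil1 and 17.9 RPKM in ein3 eil1, against 84.0 RPKM in Col-0, and EIL1 at 10.7 RPKM in pifq ein3 eil1 and 10.8 RPKM in ein3 eil1, against 44.4 RPKM in Col-0. PIF3 and PIF5 were also low in pifq, at 5.61 and 1.60 RPKM against 35.1 and 4.34 RPKM in Col-0, though PIF3 was called lower in ein3 eil1 as well, at 12.7 RPKM. PIF1 and PIF4 were not low there, at 18.2 and 8.69 RPKM against 19.0 and 4.36 RPKM in Col-0, and HLS1 was at 6.28 RPKM in hls1 against 11.2 RPKM in Col-0, so for these genes the transcript level does not check the label. Relative to Col-0, the median difference over all 18581 genes was 0.04 for hls1, -0.05 for pifq, -0.17 for pifq ein3 eil1 and -0.29 for ein3 eil1. PORA, a chlorophyll synthesis gene that is high in darkness, stood at 44.5 RPKM in hls1, 403 in pifq, 213 in pifq ein3 eil1 and 1411 in ein3 eil1, against 2089 in Col-0. Its relative PORB stood at 145 RPKM in hls1, 829 in pifq, 459 in pifq ein3 eil1 and 1091 in ein3 eil1, against 1481 in Col-0, so that hls1 was lowest for both. Roots had been removed, yet none of 10 root markers was at 0, though 3 to 6 of them were under 1 RPKM in each genotype. The summed level of the 10 was 127 RPKM in hls1, 21.0 in pifq, 43.1 in pifq ein3 eil1 and 157 in ein3 eil1, against 124 in Col-0. Most of the sum in Col-0 came from CASP1, at 83.8 RPKM. Of the 7 root markers kept, 4 were lower in pifq, while in pifq ein3 eil1 2 were higher and 2 lower, and in ein3 eil1 3 were higher. The sum of 6 seed storage and maturation markers was 22.2 RPKM in ein3 eil1 and 2.03 to 4.11 RPKM in the other mutants, against 1.77 RPKM in Col-0. The part of these markers in the results was not tested.

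Of the 5 GASA genes the filter kept 4, and 3 of these were called in at least 1 comparison with Col-0, where 18.9% of all genes compared were. Upstream sequences of the 3 GASA genes that were called and of GA2OX8 are shown because these 4 are the members called in pifq. Each run gives the 250 bases before the annotated gene start, 5′ to 3′ on the gene's strand, from RefSeq's TAIR10.1 sequence and annotation. Capitals mark CACATG, read as CATGTG on the opposite strand, which is known as the PBE-box and is bound by PIF proteins.
GASA6 (chr1:28052780-28053029, plus strand): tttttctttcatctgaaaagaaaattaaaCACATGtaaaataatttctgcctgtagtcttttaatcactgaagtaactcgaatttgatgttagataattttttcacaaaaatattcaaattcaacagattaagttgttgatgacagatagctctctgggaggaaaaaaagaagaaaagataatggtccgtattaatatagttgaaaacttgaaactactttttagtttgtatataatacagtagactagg
GASA14 (chr5:4825891-4826140, plus strand): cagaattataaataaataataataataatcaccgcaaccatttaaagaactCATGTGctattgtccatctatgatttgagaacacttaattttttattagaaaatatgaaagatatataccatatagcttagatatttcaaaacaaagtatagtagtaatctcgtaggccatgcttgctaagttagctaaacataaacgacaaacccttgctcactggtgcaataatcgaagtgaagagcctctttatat
GASA1 (chr1:28442436-28442685, minus strand): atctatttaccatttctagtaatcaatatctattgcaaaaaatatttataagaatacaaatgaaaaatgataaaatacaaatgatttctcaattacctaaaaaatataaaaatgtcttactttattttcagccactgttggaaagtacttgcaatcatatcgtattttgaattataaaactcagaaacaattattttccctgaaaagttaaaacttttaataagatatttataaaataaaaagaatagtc
GA2OX8 (chr4:11302432-11302681, plus strand): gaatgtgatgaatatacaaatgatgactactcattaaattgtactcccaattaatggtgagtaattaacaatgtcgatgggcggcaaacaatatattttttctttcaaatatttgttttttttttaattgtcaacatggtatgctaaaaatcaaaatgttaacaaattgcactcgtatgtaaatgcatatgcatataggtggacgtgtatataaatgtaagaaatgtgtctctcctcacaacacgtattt
GASA6 and GASA14 each hold 1 such match, starting at -221 and -199 relative to the gene start, and GASA1 and GA2OX8 hold none in this window. The related G-box CACGTG was found in none of the 4; it differs from the PBE-box in 1 base, so both cannot match at the same place. A match is a description of the letters, not a shown binding site. Over all 36 members, 9 windows held a PBE-box and 1, that of GA2OX4, a G-box. Over the windows of 27443 protein-coding genes the shares were 11.1% and 6.49%. Besides GASA6 and GASA14, the members with a PBE-box were GA2, GA20OX2, GA3OX1, GA3OX3, GA2OX7, GID1B and GASA4. None of these was called in pifq, and GA3OX3 and GA2OX7 were not kept by the filter. None of the 4 windows shown contains an annotated exon.

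GASA4 (AT5G15230), a gibberellin-induced gene, was among the most abundant transcripts of the seedlings in every genotype. It stood at 5478 RPKM in hls1, 7138 in pifq, 6544 in pifq ein3 eil1 and 5499 in ein3 eil1, against 7231 in Col-0, and ranked between 4 and 12 among all genes. Its level made up 0.657% to 0.838% of the summed RPKM of a column. No comparison called GASA4, and its highest level was 1.32 times its lowest.

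GASA6 (AT1G74670), a gibberellin-induced gene linked to cell elongation after germination, was the 1 member called in all 4 mutants. It stood at 786 RPKM in hls1, 409 in pifq, 668 in pifq ein3 eil1 and 433 in ein3 eil1, against 146 RPKM in Col-0. All mutants lay above Col-0, by 5.40-fold in hls1 and 2.81-fold to 4.58-fold in the others. The differences in log2(RPKM + 1) were 2.42 in hls1, 1.48 in pifq, 2.19 in pifq ein3 eil1 and 1.57 in ein3 eil1. Since each is taken against the same Col-0 value, a low value in that column would enter all 4. The interaction, which is the difference of pifq ein3 eil1 minus the sum of those of pifq and ein3 eil1, was -0.86, or -1.07 after median-of-ratios scaling.

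GASA1 (AT1G75750), which responds to gibberellin and brassinosteroid, differed in opposite directions. It stood at 1148 RPKM in hls1, 142 in pifq, 131 in pifq ein3 eil1 and 314 in ein3 eil1, against 388 in Col-0. It was higher than Col-0 in hls1, by 2.96-fold, and lower in both genotypes that carry the pifq mutations, by log2 differences of -1.44 in pifq and -1.56 in pifq ein3 eil1. In ein3 eil1 the difference was -0.30, close to the shift of all genes, and 0.03 after scaling. Between pifq ein3 eil1 and ein3 eil1 it was -1.26, and between pifq ein3 eil1 and pifq -0.12.

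GASA14 (AT5G14920), a family member with a proline-rich stretch, had its lowest level in the combined mutant. It stood at 192 RPKM in hls1, 45.3 in pifq, 20.2 in pifq ein3 eil1 and 60.4 in ein3 eil1, against 132 in Col-0. The log2 differences from Col-0 were 0.54 in hls1, -1.53 in pifq, -2.66 in pifq ein3 eil1 and -1.12 in ein3 eil1. The combined mutant differed by -1.13 from pifq and by -1.54 from ein3 eil1. The interaction was -0.01, so the differences of pifq and ein3 eil1 added up on the log2 scale. After scaling the value in ein3 eil1 was -0.79 and no longer called, and the interaction was -0.22. The summed root markers were also low in pifq and pifq ein3 eil1, where GASA1 and GASA14 were low. In pifq ein3 eil1, however, 2 kept root markers were called lower and 2 higher, and the median difference of the 7 kept was 0.86. The part of root tissue in the differences of GASA1 and GASA14 was not tested. In bulk tissue, fewer cells of a type and less RNA per cell cannot be told apart. GASA5, which acts on flowering time, did not exceed 0.508 RPKM.

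**Figure D1:**
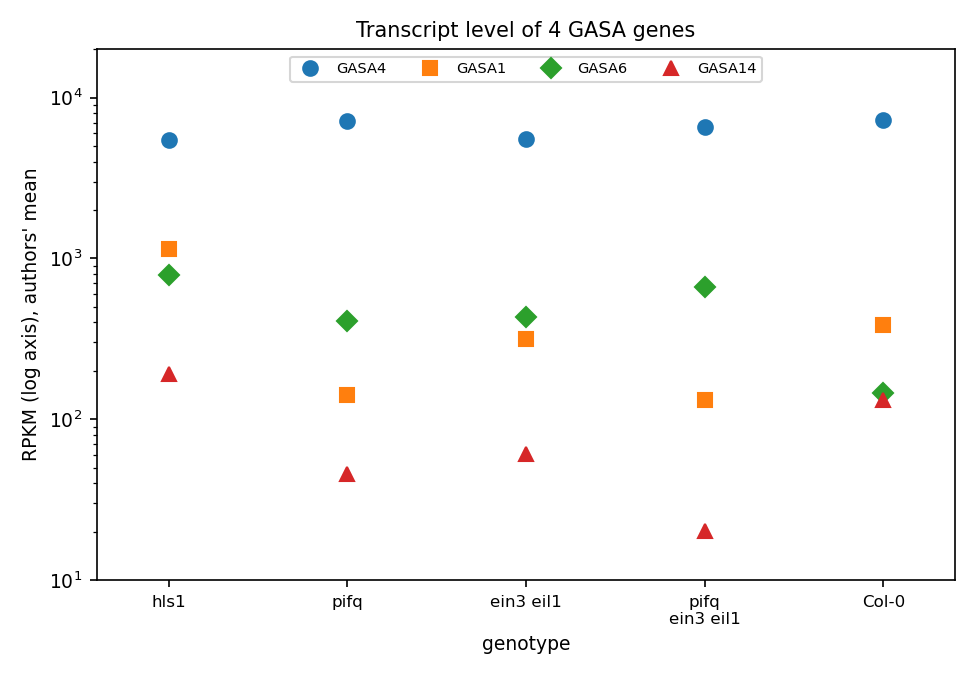
Level of 4 GASA genes, as RPKM on a log axis, in hls1, pifq, ein3 eil1, pifq ein3 eil1 and Col-0; each point is the authors' mean of 2 replicates and has no error bar. GASA4 stays between 5478 and 7231 RPKM, GASA6 is higher in every mutant than in Col-0, and GASA14 is lowest in pifq ein3 eil1.

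Of the early synthesis genes, no member was called against Col-0, where 18.9% of all genes compared were called in at least 1 mutant. GA3 (AT5G25900), for ent-kaurene oxidase, was the most abundant of them in every genotype, at 15.7 RPKM in hls1, 25.3 in pifq, 31.8 in pifq ein3 eil1 and 13.6 in ein3 eil1, against 16.0 in Col-0. The pair that carries the pifq mutations had the highest levels. Relative to Col-0 it differed by 0.63 in pifq and by 0.95 in pifq ein3 eil1, just under the threshold and 1.13 after scaling, and against ein3 eil1 the combined mutant was called higher at 1.17. KAO2 ranged from 9.64 RPKM in hls1 to 15.5 RPKM in pifq ein3 eil1, KAO1 from 3.06 to 4.55 RPKM and GA2 from 2.66 to 3.81 RPKM. GA1, which opens the pathway, lay between 0.237 and 0.460 RPKM.

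Of the 5 GA 20-oxidase genes, 3 were kept by the filter and 1, GA20OX3, was called, in hls1, where 7.41% of all genes compared were. GA20OX3 (AT5G07200) stood at 5.74 RPKM in hls1, 0.549 in pifq, 0.627 in pifq ein3 eil1 and 0.905 in ein3 eil1, against 0.211 in Col-0. It was above 1 RPKM in hls1 alone, a log2 difference of 2.48 from Col-0. Because GA20OX3 passed the filter through hls1 alone, its level there had to be the highest. The filter did not fix the size of that difference. GA20OX1 (AT4G25420), which is highly active in stem growth, stood at 3.07 RPKM in hls1, 5.87 in pifq, 5.50 in pifq ein3 eil1 and 5.19 in ein3 eil1, against 6.04 in Col-0. It led the family in every genotype except hls1, where its log2 difference from Col-0 was -0.79 and was not called. GA20OX2 (AT5G51810) stood at 3.94 RPKM in hls1, 3.36 in pifq, 3.77 in pifq ein3 eil1 and 4.65 in ein3 eil1, against 2.18 in Col-0. It was lowest in Col-0 and was called in no comparison, with 0.83 in ein3 eil1, or 1.09 after scaling. Summed over the family, the levels were 12.7 RPKM in hls1 and 9.78 to 10.7 RPKM in the other mutants, against 8.42 RPKM in Col-0.

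GA3OX1 (AT1G15550), which catalyses the last activating step, carried at least 97.8% of the summed 3-oxidase level in each genotype. It stood at 25.5 RPKM in hls1, 20.7 in pifq, 25.1 in pifq ein3 eil1 and 35.3 in ein3 eil1, against 22.5 in Col-0. The highest value was that of ein3 eil1, at a log2 difference of 0.63 from Col-0, or 0.95 after scaling, and no comparison called the gene. GA3OX2 was listed at 0 in ein3 eil1 and Col-0 and reached 0.459 RPKM in pifq.

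Of the 7 GA 2-oxidase genes, 3 were kept by the filter and all of these were called in hls1, where 7.41% of all genes compared were. GA2OX8 (AT4G21200), whose product acts on precursors of the active hormone, stood at 6.29 RPKM in hls1, 2.50 in pifq, 3.37 in pifq ein3 eil1 and 8.55 in ein3 eil1, against 17.1 in Col-0. All mutants lay under Col-0, and the genotypes that carry the pifq mutations were lowest. The log2 differences were -1.31 in hls1, -2.37 in pifq, -0.92 in ein3 eil1, which was not called, and -2.05 in pifq ein3 eil1. The combined mutant was not lower than pifq, with a difference of 0.32, but was lower than ein3 eil1 by -1.13. The interaction of 1.24 was the only one among the 25 members to reach 1 in size, where 4.85% of all genes compared did, and it was 0.98 after quantile normalization. The summed root markers were low in the same pair of genotypes, though single markers went both ways in pifq ein3 eil1. The part of root tissue in the differences of GA2OX8 was not tested either.

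GA2OX2 (AT1G30040) stood at 13.3 RPKM in hls1, 4.54 in pifq, 6.78 in pifq ein3 eil1 and 4.51 in ein3 eil1, against 2.83 in Col-0. Col-0 was lowest and hls1 highest, with log2 differences of 1.90 in hls1 and 1.02, close to the threshold, in pifq ein3 eil1. GA2OX6 (AT1G02400) stood at 2.26 RPKM in hls1, 7.18 in pifq, 9.72 in pifq ein3 eil1 and 12.0 in ein3 eil1, against 9.26 in Col-0. It was called in hls1 alone, lower at -1.66. Among the GA 2-oxidase members, the most abundant transcript was thus GA2OX2 in hls1 at 60.1% of their summed RPKM, and GA2OX8 in Col-0 at 56.3%. GA2OX6 led in pifq, ein3 eil1 and pifq ein3 eil1. The summed level of these members was 22.1 RPKM in hls1, 14.4 in pifq, 20.3 in pifq ein3 eil1 and 25.8 in ein3 eil1, against 30.3 in Col-0. The sum is unscaled, and in ein3 eil1 the median log2 difference of all genes was -0.29.

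**Figure D2:**
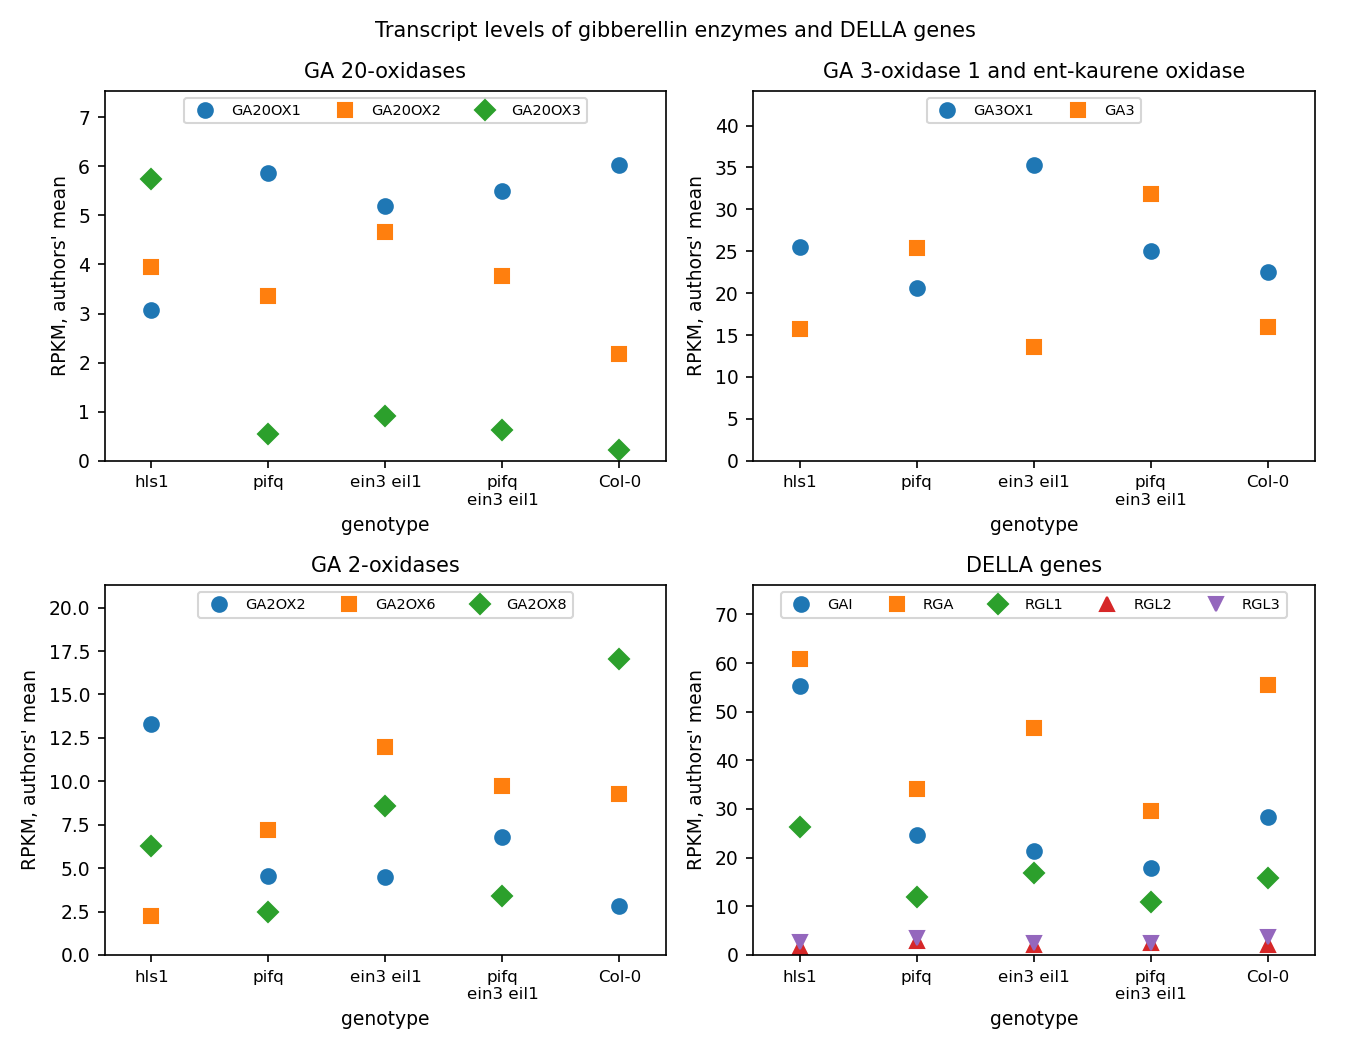
Level in RPKM of the GA 20-oxidase genes, of GA3OX1 with the ent-kaurene oxidase gene GA3, of the GA 2-oxidase genes kept by the filter and of the DELLA genes, by genotype; each point is the authors' mean of 2 replicates and has no error bar. GA20OX3 reaches 5.74 RPKM in hls1 and stays under 1 RPKM elsewhere, GA2OX8 is highest in Col-0, and GAI is highest in hls1.

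No receptor, DELLA or F-box gene was called in any of the 6 comparisons. These roles hold few genes, and only 18.9% of all genes compared were called in at least 1 comparison with Col-0. GID1A was the leading receptor gene and ranged from 13.1 to 17.0 RPKM. GID1C stood at 8.73 RPKM in hls1, 5.49 in pifq, 4.95 in pifq ein3 eil1 and 5.33 in ein3 eil1, against 8.69 in Col-0, and GID1B ranged from 2.96 to 4.69 RPKM. The levels of GID1C in hls1 and Col-0 lay together above those of the other 3 genotypes.

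RGA (AT2G01570) and GAI (AT1G14920), the DELLA genes best known for restraining stem growth, had the highest levels of their family. RGA stood at 60.9 RPKM in hls1, 34.2 in pifq, 29.6 in pifq ein3 eil1 and 46.6 in ein3 eil1, against 55.5 in Col-0. Its log2 difference was -0.68 in pifq and -0.89 in pifq ein3 eil1, or -0.62 and -0.70 after scaling, and none passed the threshold. In ein3 eil1 it was -0.25, or 0.08 after scaling. GAI stood at 55.3 RPKM in hls1, 24.6 in pifq, 17.9 in pifq ein3 eil1 and 21.3 in ein3 eil1, against 28.4 in Col-0, and its log2 difference of 0.94 in hls1 was just under the threshold. RGL1 stood at 26.3 RPKM in hls1, 11.8 in pifq, 11.0 in pifq ein3 eil1 and 16.8 in ein3 eil1, against 15.8 in Col-0. RGL2, a repressor of germination, and RGL3 stayed between 1.63 and 3.72 RPKM. The 5 DELLA genes summed to 147 RPKM in hls1, 77.0 in pifq, 63.3 in pifq ein3 eil1 and 89.3 in ein3 eil1, against 105 in Col-0. These sums are unscaled, and the median log2 difference of all genes in ein3 eil1 was -0.29.

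SLY1 (AT4G24210), the main F-box gene of DELLA turnover, varied least of the 25 members, from 16.1 to 19.1 RPKM. SNE (AT5G48170) stood at 0.493 RPKM in hls1, 0.981 in pifq, 2.07 in pifq ein3 eil1 and 1.90 in ein3 eil1, against 0.611 in Col-0. The genotypes that carry the ein3 and eil1 mutations had the highest levels, with log2 differences of 0.93 in pifq ein3 eil1 and 0.85 in ein3 eil1. These were not called, but after scaling they were 1.02 in pifq ein3 eil1 and 1.04 in ein3 eil1. SNE passed the filter through those genotypes, and values this low move most with the constant of 1 added before the log.

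Counted by comparison, the members were read against all genes compared. In hls1, 6 of 25 members were called, against 7.41% of all genes: 4 were higher (GA20OX3, GA2OX2, GASA1 and GASA6) and 2 lower (GA2OX6 and GA2OX8), against 3.4% and 4% of all genes. In pifq, 4 were called, against 9.61% of all genes: GASA6 was higher, and GA2OX8, GASA1 and GASA14 were lower, against 3.39% and 6.22%. In ein3 eil1, 2 were called, against 4.14% of all genes: GASA6 was higher and GASA14 lower, against 1.63% and 2.51%. After scaling 3 members were higher there and none was lower. In pifq ein3 eil1, 5 were called, against 9.85% of all genes: GA2OX2 and GASA6 were higher, and GA2OX8, GASA1 and GASA14 were lower, against 3.81% and 6.04%. The median difference of the members was 0.01 for hls1, -0.06 for pifq, -0.11 for pifq ein3 eil1 and -0.19 for ein3 eil1, beside the medians of all genes given above. These counts are small, and that of hls1 includes GA20OX3, which passed the filter only through hls1.

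**Figure D3:**
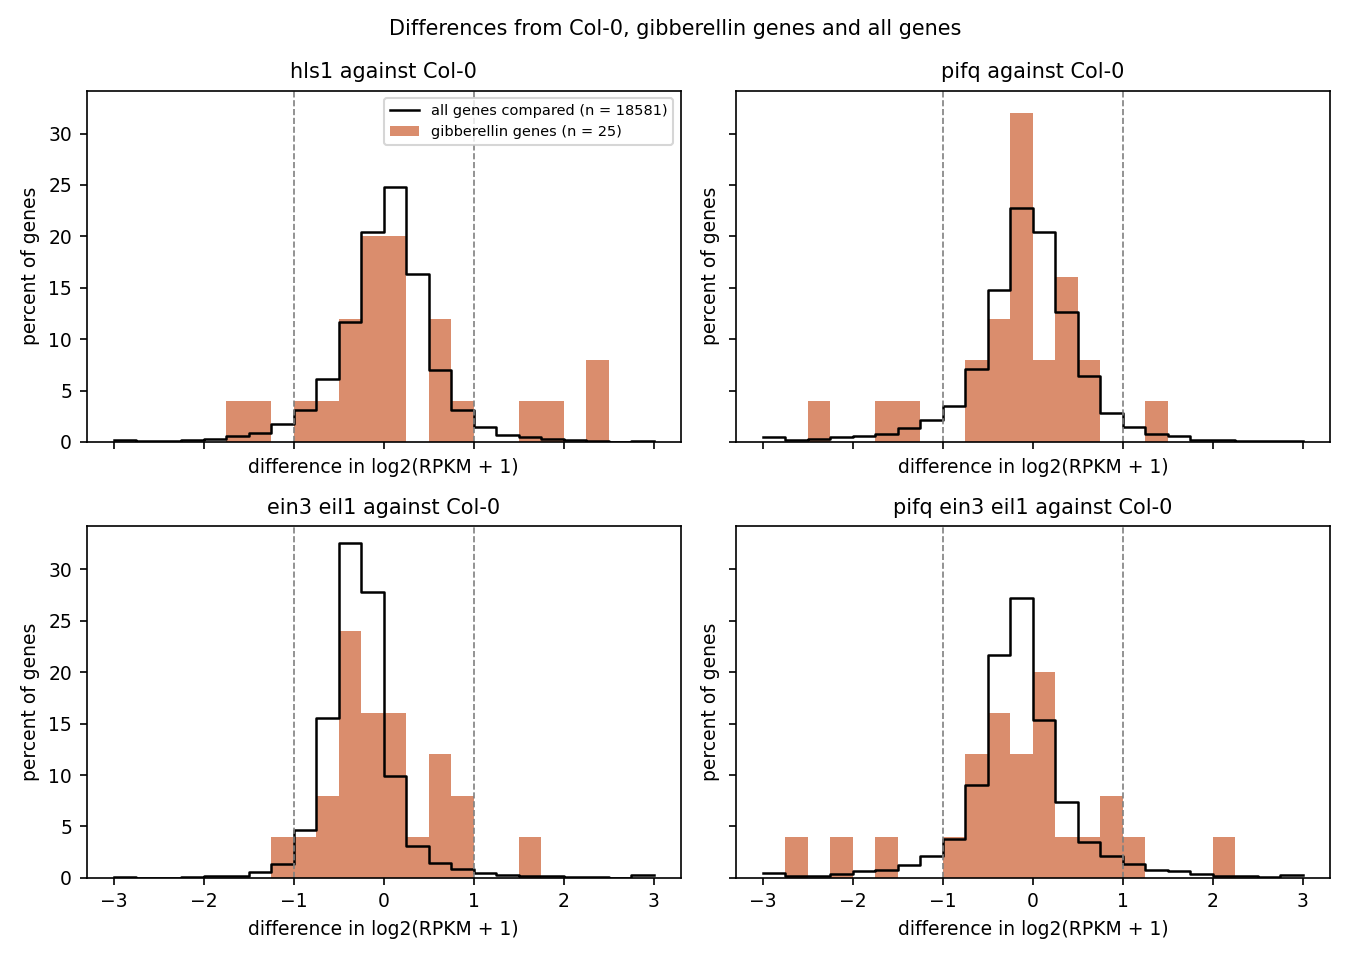
Share of genes, in percent, by difference in log2(RPKM + 1) from Col-0 in each of the 4 mutants, for 25 gibberellin genes (bars) and 18581 genes (line); dashed lines mark a difference of 1 either way. Most gibberellin genes lie between the dashed lines in each mutant, with 6 outside them in hls1 and 2 in ein3 eil1. Genes with differences beyond -3 or 3 are counted in the outermost intervals, which raises the line at both ends.

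The combined mutant was also compared with pifq and with ein3 eil1, over the 25 members kept. Against pifq, 1 member was called, where 2.88% of all genes were; it was GASA14, which was lower, where 1.76% of all genes were higher and 1.12% lower. Against ein3 eil1, 4 were called, where 8.02% of all genes were; GA3 was higher and GA2OX8, GASA1 and GASA14 were lower, where 4.04% of all genes were higher and 3.99% lower. GASA1 stood at 131 RPKM in pifq ein3 eil1 against 314 RPKM in ein3 eil1, and GA2OX8 at 3.37 RPKM in pifq ein3 eil1 against 8.55 RPKM in ein3 eil1. The median difference of the members was -0.10 against pifq and -0.04 against ein3 eil1, where that of all genes was -0.11 and 0.13.

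**Figure D4:**
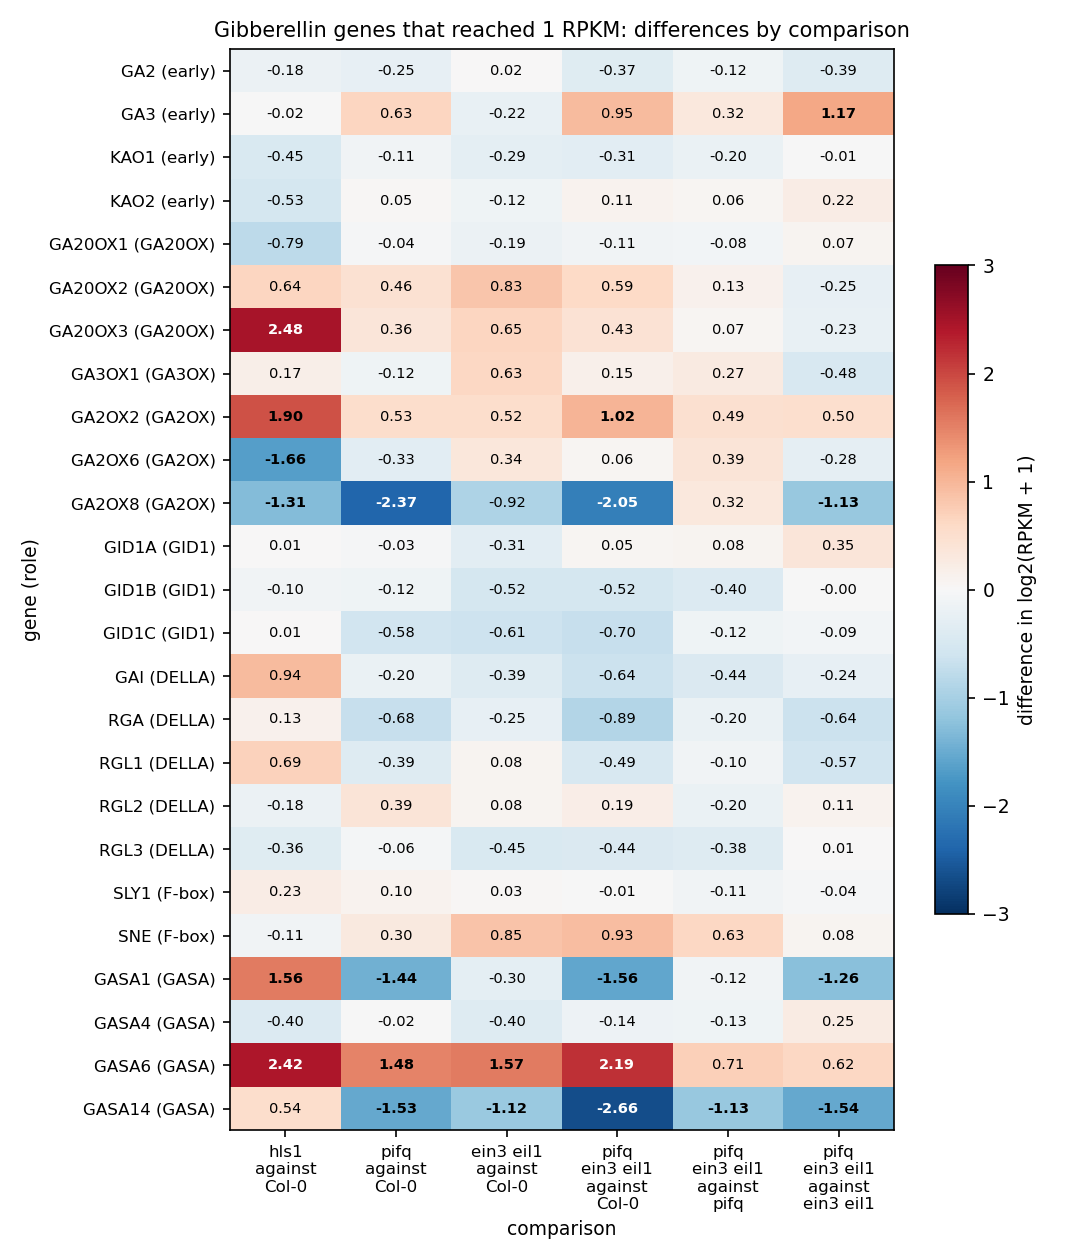
Difference in log2(RPKM + 1) of the 25 gibberellin genes that reached 1 RPKM, by role (rows), in 6 comparisons (columns); red is higher and blue lower in the genotype named first, and bold marks a difference of 1 or more. The rows of GASA6 and GA2OX8 keep 1 colour across the 4 comparisons with Col-0. So do other rows, among them those of GA20OX2, GA20OX3, GA2OX2 and KAO1. GASA1 is red in hls1 and blue in pifq and pifq ein3 eil1.

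Of 27 further genes of the pathway, from a list chosen with earlier results of these data known, 16 were kept by the filter. In hls1, 3 were higher and none was lower; in pifq 2 were higher and 3 lower; in ein3 eil1 none was higher and 1 lower; in pifq ein3 eil1 2 were higher and 4 lower. Over all genes the shares higher and lower were 3.4% and 4% in hls1, 3.39% and 6.22% in pifq, 1.63% and 2.51% in ein3 eil1, and 3.81% and 6.04% in pifq ein3 eil1. The median difference of the 16 was 0.48 for hls1, -0.24 for pifq, -0.17 for pifq ein3 eil1 and -0.24 for ein3 eil1. That of all genes was 0.04 for hls1, -0.05 for pifq, -0.17 for pifq ein3 eil1 and -0.29 for ein3 eil1. The count and the median of hls1 include GAMT2, which passed the filter only through hls1, so its level there had to be the highest. AT2G14900, annotated as a gibberellin-regulated family protein as GASA6 and GASA14 are, stood at 892 RPKM in hls1, 119 in pifq, 171 in pifq ein3 eil1 and 397 in ein3 eil1, against 558 in Col-0. It was called lower in pifq at -2.23 and in pifq ein3 eil1 at -1.70. AT1G22690, of the same annotation, stood at 17.2 RPKM in hls1, 11.4 in pifq, 20.9 in pifq ein3 eil1 and 6.08 in ein3 eil1, against 4.67 in Col-0. AT2G14900 and AT1G22690 were listed as GASA7 and GASA9, so the annotated family held genes of both directions in pifq beyond the GASA members too.

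ELA1 (AT5G24910), a cytochrome P450 gene whose product inactivates gibberellin, stood at 4.59 RPKM in hls1, 0.220 in pifq, 0.162 in pifq ein3 eil1 and 1.30 in ein3 eil1, against 3.64 in Col-0. It was called lower in pifq at -1.93 and in pifq ein3 eil1 at -2.00. In ein3 eil1 it was just past the threshold at -1.02, and at -0.80 after scaling it was not called. XERICO (AT2G04240), a RING gene known as a DELLA target, stood at 42.2 RPKM in hls1, 15.0 in pifq, 16.9 in pifq ein3 eil1 and 25.1 in ein3 eil1, against 36.2 in Col-0, and was called lower in pifq at -1.22 and in pifq ein3 eil1 at -1.05, or -0.87 and not called after scaling. NPF3.1 (AT1G68570), a gibberellin transporter gene, stood at 3.61 RPKM in hls1, 2.74 in pifq, 2.50 in pifq ein3 eil1 and 1.34 in ein3 eil1, against 0.749 in Col-0, and was called higher in hls1 at 1.40, in pifq at 1.10 and, barely past the threshold, in pifq ein3 eil1. GAMT2, a gibberellin methyltransferase gene, was called higher in hls1 at 1.49 RPKM, against 0.152 RPKM in Col-0, and passed the filter only through hls1. AT5G58660, an oxygenase gene, was called lower in pifq ein3 eil1 at 0.514 RPKM, against 4.60 RPKM in Col-0. It was listed as GA2OX9 and is not part of the GA 2-oxidase sums above. SPY, SEC, MYB33 and SCL3, regulators that act with or on DELLA proteins or downstream of them, were called in no comparison.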

How the data were processed

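Polyadenylated RNA was sequenced as paired 150 nt reads from directional libraries, per the labels and the series' design text. The deposited table gives RPKM, computed by the authors per the file headers, in 1 column per genotype. BWA 0.7.7 and TAIR10 are named in the submitters' processing notes; no source used here states the counting tool, the strand setting or the lengths. Of the values above 0 that have more than 6 digits, 95.2% to 96.0% have 5 as their last digit, as averaging 2 rounded numbers would give, and each column was taken as such an average. With no value per sample, limma could not be run, and the absolute difference of 1 in log2(RPKM + 1) served as the call. The constant of 1 understates the differences of low genes. The description columns were not used, because for most members they name another protein or none; of the 7 mutated genes, EIN3, EIL1, PIF3 and PIF5 were called lower in ein3 eil1 or pifq, and PIF1, PIF4 and HLS1 were not called lower in their mutants. Genes were looked up in RefSeq's gene table, in which all 36 members and all 27 further genes were found. Some names, such as GASA14 and GA2OX9, came from the gene list used. Coordinates and sequence are both from RefSeq's TAIR10.1, and the table itself holds none. All 36 members are given by role; those called in any of 6 comparisons and the most abundant of each role are given in every genotype. The members, lists and rules were chosen with earlier results of these data known. Alternatives were pseudocounts of 0.5 and 0.1, median-of-ratios scaling, quantile normalization, no filter and a minimum of 5 RPKM. The calling step was tested on simulated data. That simulation assumed its noise and placed changes only in genes at higher levels, so it cannot speak for replicate error here or for low genes. Python 3.11.15 and pandas 2.3.3 were used.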

Additional observations from a re-analysis of the deposited data

How the results depend on the processing

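Without a value per sample, leaving out replicates was not run. No paired analysis was possible because the columns carry no replicate. No call on the 25 members changed sign under any alternative run, and removing the filter or raising it to 5 RPKM moved no count of members called by over 1.5 times. In ein3 eil1 against Col-0, the number of members higher was 1 as reported, 2 with a pseudocount of 0.5, 4 with a pseudocount of 0.1, 3 after median-of-ratios scaling and 2 after quantile normalization, and the number lower was 1 as reported and 0 after both. In pifq ein3 eil1 against Col-0 the number higher was 2 as reported and 4 with a pseudocount of 0.1 or after median-of-ratios scaling. In pifq against Col-0 it was 1, and 2 with a pseudocount of 0.1. In pifq ein3 eil1 against pifq the number higher was 0, and 1 with a pseudocount of 0.1, and the number lower was 1, and 0 after quantile normalization. Members with an interaction of 1 or more numbered 1, and 2 with a pseudocount of 0.1 or after median-of-ratios scaling. The added calls were those of GA20OX2, GA20OX3, SNE and GA3 and, for the interaction, GASA6 and GA20OX3; the lost ones were GASA14 and, for the interaction after quantile normalization, GA2OX8. GASA6 stayed past the threshold in all 4 comparisons with Col-0 under these alternatives. The cause of each move was not tested. The same alternatives were run on the 16 further pathway genes after the data had been seen. None of their calls changed sign. The calls of ELA1 in ein3 eil1 and of XERICO in pifq ein3 eil1, both against Col-0, were lost after median-of-ratios scaling and after quantile normalization, and 13 values came past the threshold. Depth is unknown, so values under 1 RPKM, such as those of GA20OX3 outside hls1, carry no stated precision.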
